A study of Mus musculus with 4 samples.

Results

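The proteasome genes described here are the rows of the deposited count table whose symbols begin with Psma to Psmg, leaving out the immunoproteasome subunits Psmb8, Psmb9 and Psmb10, which serve below as a comparison. The rule finds 47 genes of the 25239 in the table. They were measured by RNA-seq of NKT cells (T cells with receptors for lipids on CD1d) in 4 libraries, sorted as CD1d-tetramer+ TCRβ+ cells from the small intestinal lamina propria (SI-LP) of young adult wild-type C57BL/6Jax mice of both sexes, all of which had received an anti-ARTC2 nanobody before harvest. Replicates 3 and 4 came from the first experiment and replicates 1 and 2 from the second, and all 4 belong to 1 condition, so the only comparison between groups is that of the experiments. The labels do not say how many animals gave each library, and the spread between libraries may therefore be partly technical.

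The proteasome degrades proteins tagged with ubiquitin. Its barrel-shaped core particle (20S) stacks rings of alpha subunits, which control entry, around rings of beta subunits, which cut the chain. The regulatory particle (19S) sits on the ends of the barrel, where its non-ATPase subunits bind and deubiquitinate the substrate and its ATPases unfold it. Interferon-γ, which NKT cells make, is known to raise the immunoproteasome subunits and the PA28 cap in many cells, and the peptides that T cells recognise on MHC class I are largely proteasome products. Not every symbol the rule takes is a subunit. Psmg1 to Psmg4, Psmd5, Psmd9 and Psmd10 are assembly chaperones, Psme1 to Psme4 form alternative caps, and Psmf1 is an inhibitor. Psmc3ip, taken by its name, is a cofactor of meiotic recombination.

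The libraries held between 3882803 and 8732858 counts. All 7 T cell markers examined were present in every library and together took between 0.118% (replicate 2) and 0.286% (replicate 3) of the counts, while the 2 CD8 genes took at most 0.000149%. Epithelial and plasma cell RNA differed between libraries. The summed share of 21 epithelial markers was 0.0982% in replicate 1, 1.24% in replicate 2, 0.0200% in replicate 3 and 3.07% in replicate 4, with 1 marker at 0 in each of replicates 1 and 3 and 0 at 0 in replicates 2 and 4. Lyz1 alone held 84299 counts in replicate 4 and 3534 in replicate 2, and without it replicate 2 would have the larger share. The 7 plasma cell markers in the table took 0.671% and 0.854% in the second experiment against 0.0238% and 0.0497% in the first. The 6 proliferation markers took 0.0765% in replicate 2 and 0.0691% in replicate 4 against 0.0211% and 0.0190% in replicates 1 and 3. B cell markers took at most 0.00625%, with 3 of 5 at 3 counts or fewer in every library. The others were split by experiment. Cd79a had 269 and 288 counts in replicates 1 and 2 against 0 and 0 in replicates 3 and 4. Cd79b had 113 and 256 against 2 and 0.

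Transcripts of the proteasome were abundant in every library. The 47 genes together took 0.268% of the counts in replicate 1 (95% Wilson interval 0.265 to 0.272), 0.441% in replicate 2 (0.437 to 0.446), 0.249% in replicate 3 (0.245 to 0.254) and 0.286% in replicate 4 (0.280 to 0.291), intervals that cover counting error only. Replicate 2 thus had the largest share, 1.77 times that of replicate 3. Without the 10 most abundant genes of the table, the shares were 0.325%, 0.508%, 0.375% and 0.396% in replicates 1 to 4. Replicate 2 was then still the highest, but replicate 1 was the lowest. In bulk RNA, fewer cells of a type and less RNA per cell cannot be told apart. Of the 47 genes, 41 had at least 10 counts in all 4 libraries, and 44 passed the filter for testing (at least 10 counts in at least 2 libraries). The 3 that did not pass were Psmg4 and the tissue-restricted paralogs Psma8, the alpha subunit of the testis, and Psmb11, the beta subunit of the cortical thymic epithelium, which both had 0 counts in all libraries. A count of 0 allows a level of up to 0.416, 0.287, 0.670 and 0.753 CPM (counts scaled to library size with TMM factors) in replicates 1 to 4, the level of 3 counts per library.

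Levels between genes are compared in TPM, which corrects the counts for gene length. Among the 44 tested genes, the median percentile by TPM was 85.6 (48.1 over all 11689 tested genes), 13 lay above the 90th percentile and 5 below the 50th. Those 5 were Psmg2, Psmg3, Psmd9, Psmf1 and Psmc3ip, none of them a subunit of the core or regulatory particle. The plot of levels by subunit group shows the core particle above the regulatory particle, the chaperones below both, and 1 gene, Psme1, above all others.

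**Figure D1:**
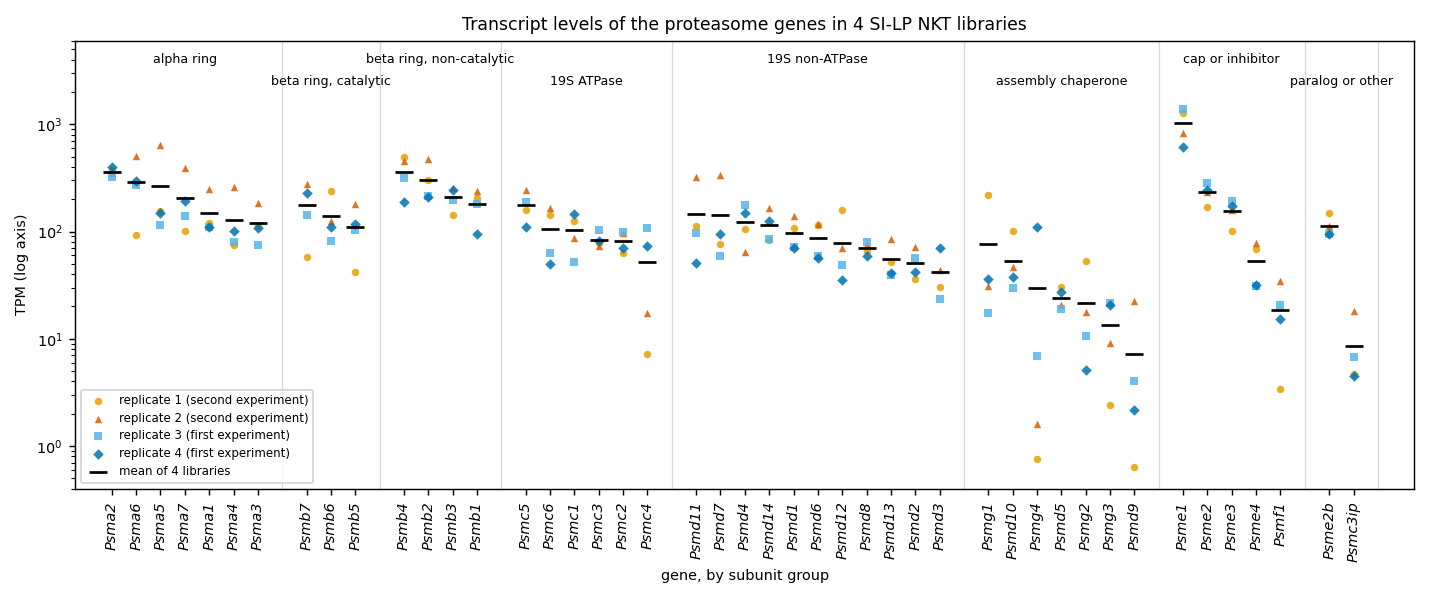
TPM (log axis) of the 45 proteasome genes with any counts, 1 symbol per library and a bar for the mean of 4 libraries, ordered by mean TPM within each subunit group. Psme1 (mean TPM 1024) lies above all other genes, and the assembly chaperones have the widest ranges.

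The alpha ring, the outer ring of the core, was expressed at a median of 182 ± 114 TPM (SD of the 4 library medians, n = 4). Its highest gene was Psma2 (chr13:14613242-14625673, GRCm38), with 372, 351, 319 and 398 TPM in replicates 1 to 4. The 4 values lie close together, at 360.2 ± 33.3 TPM. The lowest was Psma3, with 113, 185, 74.6 and 107 TPM (120.0 ± 46.5). Psma2 was thus 3.0 times as high as Psma3 in mean TPM, and its lowest library lay above the highest library of Psma3, although the particle holds both in equal numbers.

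In 6 of the 7 alpha genes the highest library was replicate 2. Psma5 had 155, 643, 115 and 149 TPM in replicates 1 to 4, and Psma6 had 92.1, 505, 270.3 and 296. Replicate 2 stood far above the other libraries in Psma5, whereas in Psma6 replicate 1 was also low. Psma4 overlaps AY074887 on the opposite strand, and its counts are uncertain to that extent. The median log2 CPM difference of the 7 genes between replicate 2 and replicate 1 was 1.72, and that between replicate 4 and replicate 3 was 0.32.

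The inner rings hold the catalytic subunits Psmb6 (β1, caspase-like), Psmb7 (β2, trypsin-like) and Psmb5 (β5, chymotrypsin-like). Psmb6 (chr11:70525357-70527858) had 239.8, 125, 81.6 and 111 TPM in replicates 1 to 4, a mean of 139 ± 69.4. Psmb7 (chr2:38588046-38643906) had 58.0, 279.8, 141 and 227 TPM, a mean of 176 ± 97.5. Psmb5 (chr14:54614120-54617995) had 41.6, 179, 104 and 117 TPM, a mean of 110.3 ± 56.2. In each pair of the 3, the means differed by less than the SD of the more variable gene. Replicate 1 was the lowest library for Psmb5 and Psmb7 and the highest for Psmb6. Psmb5 shares part of its locus with the microRNA gene Mir686 on the same strand, and its counts are uncertain to that extent.

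The 4 non-catalytic beta genes had a median of 253 ± 72.8 TPM, the highest group median of all. Psmb4 led with 492, 458, 313 and 187 TPM (362.4 ± 140.2), and Psmb1 was lowest with 206, 238, 182 and 94.1 TPM (180.0 ± 61.7). Both were lowest in replicate 4.

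The promoter windows of RefSeq (GRCm38.p6, 250 bases before to 50 after the annotated start) matched 39 of the 47 genes. They were searched on both strands for 3 motifs, TGACNNNGC (the core of the antioxidant response element, which NRF1 and NRF2 recognise), CCAAT (bound by NF-Y) and CCGGAAG (the core that ETS factors bind). No matches of different motifs overlapped. The antioxidant-type motif is shown for the catalytic subunits Psmb5 and Psmb6, among the genes that carry the cutting activity. The catalytic subunit Psmb7 had no window and was not searched. It begins 47 bases before the start of Psmb5 and 9 bases before that of Psmb6, and the capitals mark it.
Psmb5, chr14:54618014-54618062, minus strand: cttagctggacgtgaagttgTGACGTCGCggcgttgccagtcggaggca
Psmb6, chr11:70525328-70525376, plus strand: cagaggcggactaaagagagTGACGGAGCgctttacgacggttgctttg

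Over all matched genes, TGACNNNGC occurred in 6 of 39 (15.4%), beside 16.7% of the 9313 tested genes with a window and 12.4% of all 32851 windows. CCAAT occurred in 14 of 39 (35.9%), beside 42.8% of tested genes and 37.4% of windows. Neither share stands above that of expressed genes in general. CCGGAAG occurred in 15 of 39 (38.5%), beside 20.6% of tested genes and 8.86% of all windows. These shares are a description, since a match does not show that a factor binds.

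CCGGAAG occurred in 9 of the 14 regulatory genes with a window (Psmc1, Psmc2, Psmc6, Psmd2, Psmd4, Psmd6, Psmd11, Psmd12 and Psmd13) and in 1 of the 11 core genes with one, Psma6, a split that was looked at after the matches were seen. The windows below show where it lies in an ATPase, Psmc2 (84 bases before the start), in the non-ATPase subunits Psmd2 (26 bases) and Psmd6 (45 bases), and in Psme4, the PA200 cap (53 bases). Capitals mark CCGGAAG or its reverse complement.
Psmc2, chr5:21785171-21785217, plus strand: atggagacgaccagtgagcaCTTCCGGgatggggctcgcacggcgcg
Psmd2, chr16:20651606-20651652, plus strand: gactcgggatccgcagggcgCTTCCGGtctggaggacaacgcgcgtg
Psmd6, chr14:14120964-14121010, minus strand: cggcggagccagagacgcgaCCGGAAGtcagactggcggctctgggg
Psme4, chr11:30771702-30771748, plus strand: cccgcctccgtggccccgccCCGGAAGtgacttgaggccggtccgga

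The 19S ATPases, which unfold the substrate, had a median of 92.6 ± 11.3 TPM. Psmc5 was the highest, with 158, 245, 187 and 110.4 TPM (175 ± 56.2). Psmc4 (chr7:28041702-28050092) was the lowest, with 7.25, 17.4, 109 and 73.1 TPM (51.6 ± 47.8). Both libraries of the second experiment lay far below both of the first in Psmc4, and among the other ATPases only Psmc3 had this order, at 42.1 and 38.9 CPM in replicates 1 and 2 against 68.8 and 53.4 CPM in replicates 3 and 4. The log2 difference of the second over the first experiment was positive for 2 of the 6 ATPase genes.

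The 11 non-ATPase subunits, which include the deubiquitinase Psmd14 and the ubiquitin receptor Psmd4, had a median of 71.8 ± 14.6 TPM. Psmd11 was the highest, with 112, 322, 97.3 and 51.0 TPM (146 ± 120.4). Its position rests on replicate 2. Psmd3 was the lowest, with 30.4, 43.6, 23.3 and 70.01 TPM (41.8 ± 20.6). Psmd8 was among the steadiest genes of the complex, with 66.0, 76.3, 79.8 and 59.1 TPM.

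The median TPM of the 17 regulatory genes was below that of the 14 core genes in 4 of 4 libraries. The ratio of the medians was 0.633 in replicate 1, 0.324 in replicate 2, 0.509 in replicate 3 and 0.417 in replicate 4, a mean log2 ratio of -1.13 ± 0.41 (SD, n = 4). The ratio was smallest in replicate 2, where the alpha ring was high. The difference concerns transcript levels per length and says nothing of the amounts of the particles.

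The alternative caps and the inhibitor differed widely in level, from a mean of 18.4 TPM for Psmf1 to 1024 TPM for Psme1. Psme1 (PA28α, chr14:55578494-55581527), an interferon-inducible activator subunit, had 1271, 821, 1394 and 609 TPM, a mean of 1024 ± 370.0. Its lowest library lay above the highest library of every other proteasome gene except the replicate 2 value of Psma5, and it took between 7.07% and 18.1% of all proteasome counts. Its partner Psme2 (PA28β), with which it assembles into 1 ring, had 169, 233, 280.4 and 245 TPM, a mean of 232 ± 46.5. The ratio of Psme1 to Psme2 was 7.51, 3.53, 4.97 and 2.48 in replicates 1 to 4.

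These ratios carry uncertainty from the counting. Psme2 has a near-identical copy, Psme2b, listed at 148, 112, 94.4 and 95.0 TPM, between which reads may be split or lost. With the 2 copies summed, the ratio was 4.01, 2.38, 3.72 and 1.79, still above 1 in 4 of 4 libraries. Psme1 overlaps Emc9 on the opposite strand, and the counting took no account of strand. Psme2b overlaps 9930111J21Rik1 on its own strand.

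Psme3 (PA28γ, the nuclear cap) had 102, 157, 194 and 173 TPM (156 ± 39.2), and Psme4 (PA200) had 69.1, 78, 31.2 and 31.8 TPM (52.5 ± 24.6). By CPM, both libraries of the second experiment lay below both of the first in Psme3 and above both of them in Psme4. Psmf1, the inhibitor PI31, had 3.39, 34.5, 20.5 and 15.2 TPM (18.4 ± 12.9) and was 9.94 times as high in replicate 2 as in replicate 1 by CPM.

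The assembly chaperones were less abundant than the core genes, the regulatory genes and the caps, at a median of 23.9 ± 5.93 TPM, and the most variable group, with a median SD of log2 CPM of 1.32. Of the 7 chaperones, only 4 had at least 10 counts in all libraries. The part of low counts in their spread was not tested. Psmg1 (PAC1), which helps to build the alpha ring, had 220, 30.8, 17.4 and 35.7 TPM and stood apart in replicate 1. Psmd9 (p27), an ATPase chaperone, had 4, 196, 19 and 9 counts in replicates 1 to 4 and stood apart in replicate 2. Psmg4 (PAC4), the alpha-ring chaperone below the filter, had 1, 3, 7 and 98 counts, so that replicate 4 held nearly all of its reads. For these 3 genes the high value lay in a different library each time. Psmc3ip had between 7 and 60 counts per library and overlaps Mlx on the opposite strand.

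The immunoproteasome replaces the 3 catalytic subunits with Psmb9 (β1i), Psmb10 (β2i) and Psmb8 (β5i). Psmb9 exceeded Psmb6 in 4 of 4 libraries, at 4.25, 2.43, 12.5 and 4.38 times the TPM, a mean log2 ratio of 2.28 ± 0.98. Psmb8 exceeded Psmb5 in 3 of 4, at 7.98, 0.722, 4.04 and 2.39 times, a mean of 1.45 ± 1.46. Psmb10 lay below Psmb7 in 4 of 4, at 0.797, 0.458, 0.907 and 0.450 times, a mean of -0.69 ± 0.53. The plot of the 3 pairs shows replicate 2 as the exception for Psmb8 and Psmb5. The Psmb8 and Psmb10 ratios, and that of Psme1 to Psme2, were higher in replicates 1 and 3 than in replicates 2 and 4. Replicates 1 and 3 also had the larger T cell and the smaller epithelial marker shares. The Psmb9 ratio did not follow this order. The part of other cells in these ratios was not tested. By an exact two-sided sign-flip permutation test over the 4 libraries, p was 0.125 for Psmb9 to Psmb6, 0.125 for Psmb10 to Psmb7 and 0.25 for Psmb8 to Psmb5, and 0.188, 0.188 and 0.25 after adjustment over the 3 (Benjamini-Hochberg). The smallest p that 4 libraries allow is 0.125, so that no pair could pass 0.05.

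**Figure D2:**
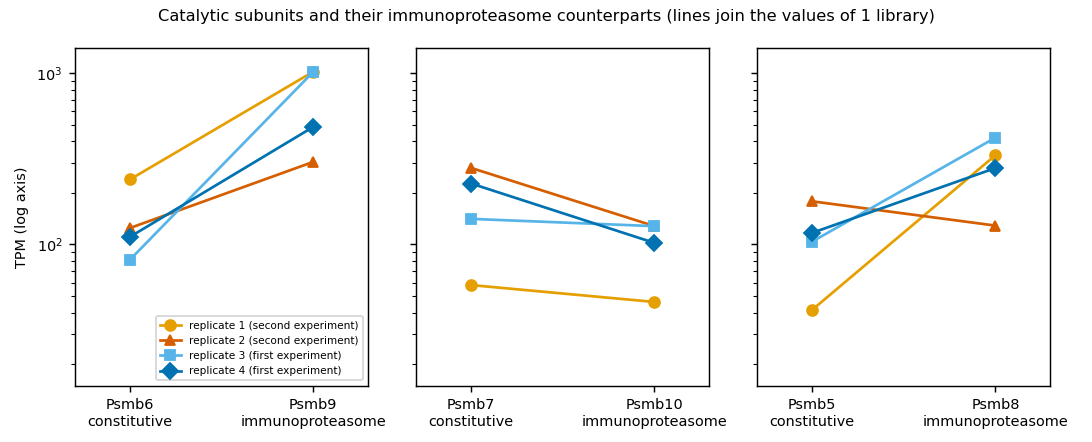
TPM (log axis) of each catalytic subunit and of its immunoproteasome counterpart, 1 line per library. All 4 lines rise from Psmb6 to Psmb9, all 4 fall from Psmb7 to Psmb10, and 3 of 4 rise from Psmb5 to Psmb8.

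Between the experiments, no proteasome gene was called. In the quasi-likelihood test of edgeR, with p values adjusted over all tested genes after Benjamini and Hochberg, 0 of 44 had an adjusted p under 0.05 (0% of all 11689), and DESeq2 also called 0 of them, beside 41 (0.351%) of all 11689. At an unadjusted p under 0.05 there was 1 of 44, beside 2.12% of all tested genes. That gene was Psmc4, at 3.46 and 8.14 CPM in replicates 1 and 2 against 63.4 and 42.4 CPM in replicates 3 and 4. Its log2 difference of the second over the first experiment was -3.18 ± 1.01 (SE), with an unadjusted p of 0.0179 and an adjusted p of 0.9997 (edgeR). Leaving out replicate 1 or replicate 3 takes this unadjusted p above 0.05. The next lowest unadjusted p values were those of Psmd4 (0.120, log2 difference -1.23 ± 0.69) and Psmc6 (0.136, 1.16 ± 0.68). Psmd4 had 47.1, 27.9, 95.5 and 80.8 CPM in replicates 1 to 4. Psmc6 had 74.7, 83.9, 39.7 and 31.4 CPM. In both genes the libraries of the experiments did not overlap, an order that picking by low p favours. Both libraries of the second experiment lay below both of the first in 14.4% of all tested genes and above both in 14.7%.

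The signs were mixed. The log2 difference was above 0 for 24 genes and below 0 for 20, with a median of 0.21 (0.03 over all tested genes). Both libraries of the second experiment lay above both of the first for 9 of 44 genes (20.5%, beside 14.7% of all tested genes), among them Psmb2, Psmb4, Psmd1 and Psme4. Both lay below for 7 of 44 (15.9%, beside 14.4%), among them Psma2, Psmc4, Psmd4, Psme2 and Psme3. Epithelial share does not separate the experiments, whereas plasma cell share and B cell marker share do. So does Rn45s, at 11.4% and 7.36% of the counts in replicates 1 and 2 against 28.1% and 21.6% in replicates 3 and 4. Depth does too, at 7233071 and 8732858 counts against 5487147 and 3882803. The part of plasma cell and B cell RNA, Rn45s and depth in these orders was not tested.

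Within the first experiment the proteasome genes were close together. The log2 CPM of replicates 3 and 4 differed by more than 1 in either direction for 4 of 44 genes (9.09%), beside 49.9% of all tested genes. Among the 2433 tested genes with a mean level between 31.1 and 83.1 CPM, the middle range of the proteasome genes themselves, it was 1 of 22 proteasome genes (4.55%) beside 31.9% of all genes there. The 4 were Psmc1 and Psmd3, higher in replicate 4 by 1.45 and 1.57, Psmg1, higher by 1.0, and Psme1, higher in replicate 3, with a log2 difference of -1.20. The median difference over the 44 was -0.04. The epithelial marker share was the largest of the 4 libraries in replicate 4, through Lyz1, and the smallest in replicate 3.

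Within the second experiment more of them differed, though still a smaller share than of all tested genes. Replicates 1 and 2 differed by more than 1 for 18 of 44 genes (40.9%), beside 59.1% of all tested genes, and in the middle level range for 7 of 22 (31.8%), beside 44.5% of the genes there. Of the 18, 14 were higher in replicate 2 (31.8%, beside 34.1%), and in the middle level range 6 of 22 (27.3%, beside 21.7% of the genes there). The 14 include Psma1, Psma4, Psma5, Psma6, Psma7, Psmb5, Psmb7, Psmd7 and Psmd11. The 4 that were lower were Psmd12 and the chaperones Psmg1, Psmg2 and Psmd10. The largest differences were those of Psmd9 (4.47), Psmf1 (3.22), Psmg1 (-2.83) and Psma6 (2.41), and the median was 0.58 (0.13 over all tested genes).

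**Figure D3:**
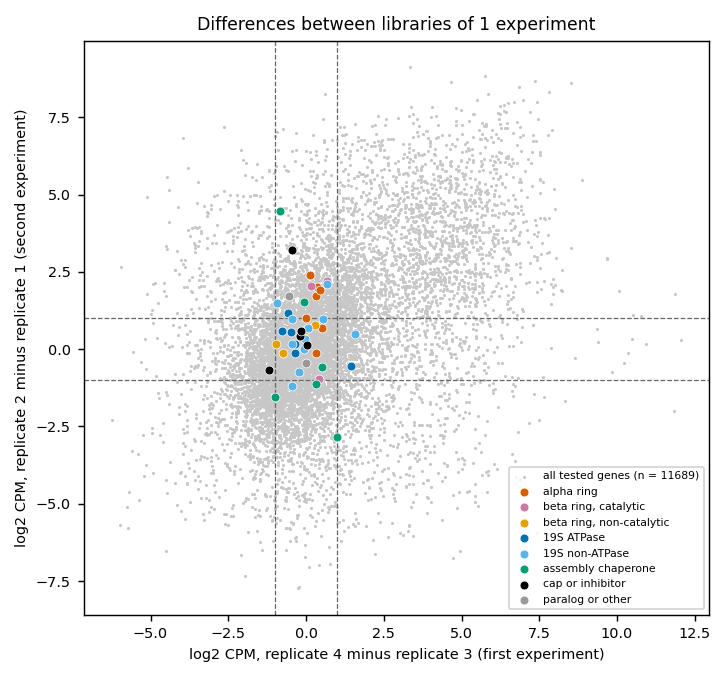
Log2 CPM of replicate 4 minus replicate 3 (x axis) against replicate 2 minus replicate 1 (y axis) for all 11689 tested genes (grey) and the 44 tested proteasome genes (coloured by group), with dashed lines at -1 and 1. The coloured points form a narrow vertical band, 40 of 44 of them between the vertical lines and 26 of 44 between the horizontal ones.

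Replicates 4 and 2 had the larger epithelial share of their experiments, and differences were therefore also counted in both pairs at once. A log2 difference above 1 in both occurred in 0 of 44 proteasome genes, beside 19% of all tested genes, and one above 0 in both in 13 of 44 (29.5%), beside 35.2%. A difference below 0 in both occurred in 7 of 44 (15.9%), beside 29.9%. In the middle level range the shares of all genes were 7.07% above 1, 28.1% above 0 and 37.5% below 0, beside 0, 6 and 4 of the 22 proteasome genes there. With library size alone in place of TMM factors, 1 gene passed the limit of 1 in both (2.27%, beside 22.6% of all tested genes) and 21 the limit of 0 (47.7%, beside 42.5%).

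The highest of the 4 libraries was replicate 2 for 21 of 44 genes (47.7%), beside 28.6% of all tested genes, followed by replicate 3 for 9, replicate 1 for 8 and replicate 4 for 6. By group these were 6 of 7 alpha genes, 6 of 11 non-ATPase genes, 1 of 3 catalytic and 2 of 4 non-catalytic beta genes, 2 of 6 ATPases, 2 of 5 caps or inhibitor, 1 of 6 tested chaperones and 1 of the 2 tested paralogs or name matches. Replicate 2 also had the second largest epithelial share, and the largest without Lyz1. It had the largest plasma cell and proliferation shares and the smallest T cell share. The part of all of these shares in the pattern was not tested.

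**Figure D4:**
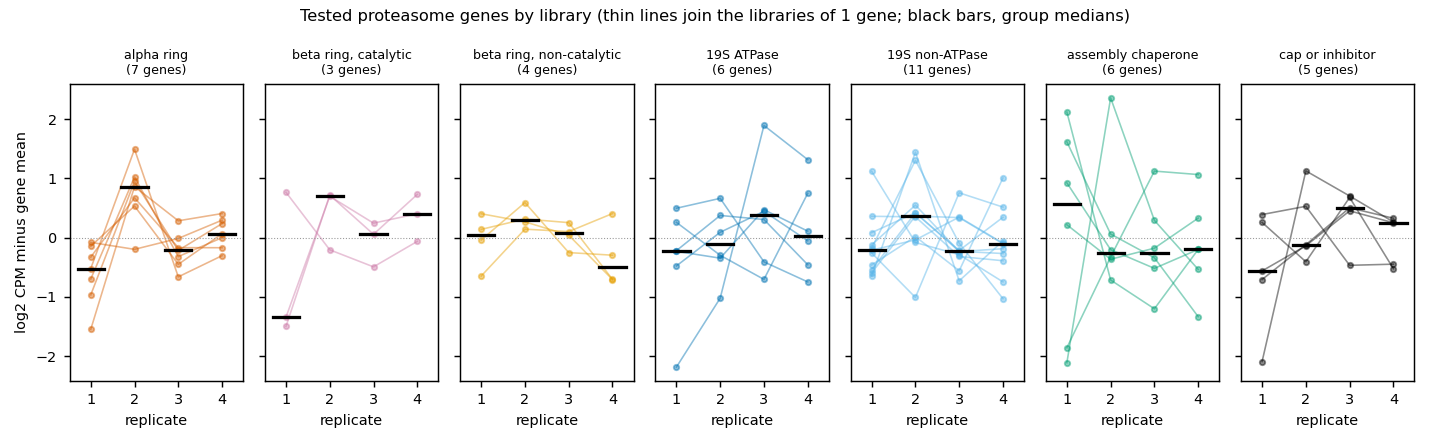
Log2 CPM minus the mean of the gene in each of the 4 libraries, 1 panel per subunit group, with thin lines joining the values of 1 gene and black bars at the group medians. The alpha ring peaks in replicate 2 in 6 of 7 genes, and the chaperones spread in every direction.

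Across all 4 libraries the median SD of log2 CPM was 0.55 for the proteasome genes and 1.02 for all tested genes, and 36 of 44 lay below the latter. The steadiest were Psme2b (0.20), Psma2 (0.21) and Psmd8 (0.24). The most variable were Psmc4 (1.93), Psmd9 (1.86) and Psmg1 (1.47), whose highest library exceeded the lowest by 18.3, 33.9 and 10.4 times. The median SD was 0.46 for the non-ATPase subunits, 0.46 for the non-catalytic beta subunits and 0.52 for the ATPases, against 0.74 for the alpha ring, 0.92 for the catalytic subunits and 1.32 for the chaperones. Some chaperones had low counts in some libraries.

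The comparison with all genes depends on level. In the middle level range named above, the median SD was 0.47 over the 22 proteasome genes there and 0.68 over all 2433 tested genes there. The plot of spread draws all 44 tested proteasome genes beside those 2433, not the 22 alone. With replicates 1 and 3 alone, the libraries with little epithelial RNA, the order turned in that range, at 0.51 for the proteasome genes and 0.42 for all genes.

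**Figure D5:**
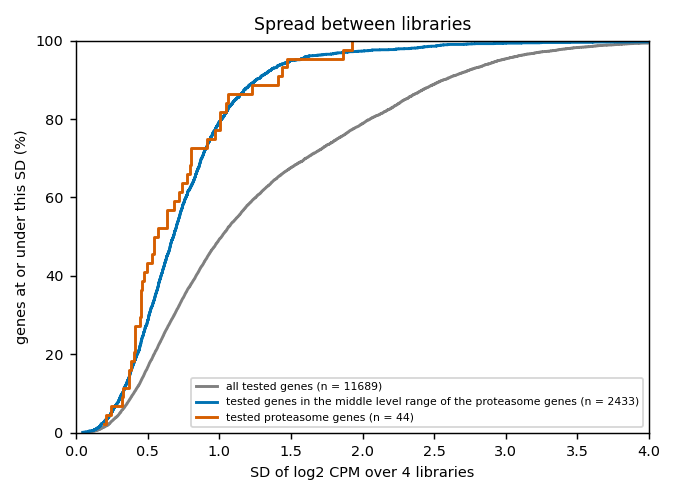
Cumulative percent of genes (y axis) at or under a given SD of log2 CPM over the 4 libraries (x axis), for all 11689 tested genes, the 2433 of them in the middle level range of the proteasome genes, and the 44 tested proteasome genes. The medians are 1.02, 0.68 and 0.55.

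Of the pathway around the proteasome, 31 genes of a list of 36 symbols were found, 4 of the others being older names of listed genes and Paaf1 not being analysed here, and all 31 were tested. By edgeR, 0 had an adjusted p under 0.05 between the experiments and 0 an unadjusted p under 0.05, and DESeq2 gave 0 for both. Their median SD of log2 CPM was 0.45. The steadiest list was that of the factors bound to the proteasome, at 0.24 over 7 genes, including Sem1, a small subunit of the lid whose symbol the rule does not take, with 166 ± 10.7 TPM. Uba1, the main ubiquitin-activating enzyme, had 228 ± 8.55 TPM. Pomp, which matures the core particle, had 752, 397, 318 and 366 TPM and so lay above the Psmg chaperones in every library. Among the regulators of proteasome gene transcription, Nfe2l2 (NRF2) had 190 ± 62.2 TPM and Nfe2l1 (NRF1) 63.4 ± 22.5 TPM. Akirin2, which carries the proteasome into the nucleus, ranged from 28.6 TPM in replicate 2 to 171 TPM in replicate 1.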

How the data were processed

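NKT cells of the SI-LP were profiled by RNA-seq in 4 libraries, 2 from each of 2 experiments. The authors deposited raw counts per gene, made with featureCounts 1.6.4 on exons of a RefSeq annotation (mm10) with primary alignments and no strand option, and gene lengths, which are not a measurement. Their methods name HISAT2 and GRCm39, but the coordinates of the table are those of GRCm38. Of 6 library columns, 4 match a label and 2 were not used. Reads that overlap more than 1 gene are not counted, so overlapping genes are uncertain.

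CPM was computed with TMM factors, TPM with the deposited lengths over all genes, and log2 CPM after adding a prior count (2 on average) to each gene. The test between experiments was the quasi-likelihood test of edgeR, run on the 11689 genes that reached 10 counts in 2 or more libraries, with p values adjusted after Benjamini and Hochberg. The common biological coefficient of variation was 0.976. With 1 condition this test measures replicate error. The test was run on simulated counts with a dispersion of 0.05 and with that of these libraries. Recovery of known changes was required only at 0.05. The ratio of the regulatory to the core particle is given without a test, since it is a score over the genes chosen. Intervals and the floor of 3 counts cover counting error only.

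The genes, the subunit groups, the pathway and marker lists and the motifs were chosen with earlier results of these data known. Values per library are given for the catalytic subunits, the highest and lowest gene of each group, the 3 with the largest and the 3 with the smallest SD, the 3 with the lowest p, genes at 3 counts or fewer, and the caps and inhibitor. Psma5, Psma6, Psmc3, Pomp and Akirin2 were named after their values were seen. Tests ran in DESeq2 1.42.0 and edgeR 4.0.16 (limma 3.58.1, R 4.3.3), and summaries and figures in scipy 1.17.1, pandas 2.3.3, numpy 2.4.6 and matplotlib 3.10.9 (Python 3.11.15).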

Additional observations from a re-analysis of the deposited data

Results flagged for a closer look

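Of 58 values examined over the 4 libraries (45 genes by CPM, group medians, ratios and the share of counts), 10 were flagged. In these, the gap of the highest or lowest library to the nearest other exceeded the 95% critical value of Dixon's test. For normally distributed values, chance does this in about 1 of 20. CPM and TPM were taken without a log, and whether that rate holds for them was not tested. The stray library was replicate 2, above the others, for Psma1 (0.883 of the range), Psma5 (0.919), Psmd7 (0.831), Psmd13 (0.888), the median TPM of the alpha ring (0.850) and that of the 4 paralogs and name matches (0.832). It was replicate 1, above the others, for Psmg1 (0.889), Psmd10 (0.856) and Psme2b (0.849), and replicate 4 for Psmg4 (0.942). The 10 are not independent, since the medians are made from the genes.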

How the results depend on the processing

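No paired analysis was possible because the 2 experiments share no replicate number. The count of proteasome genes called between the experiments was 0 with library size alone, with size factors by the median of ratios, with DESeq2, with no filter, at least 10 counts in all 4 libraries, and without any 1 replicate. Over all genes with an adjusted p, DESeq2 called 41 (0.351%), the fit with no filter 60 (0.370%), that without replicate 3 called 7, that without replicate 4 called 6, and the others 0. The direction of the ratio of regulatory to core particle and of the 3 immunoproteasome ratios was kept with CPM in place of TPM and without any 1 replicate. Without the 10 most abundant genes, which include Rn45s (between 7.36% and 28.1% of the counts), the share of counts rose from 0.311% to 0.401% and the median TPM of the 19S ATPases from 92.6 to 108. With library size alone, the within-experiment counts were 1 above 1, 21 above 0 and 3 below 0 in both experiments, beside 22.6%, 42.5% and 22.2% of all genes. Where 10 counts were required in every library, 4 of 41 were below 0 in both, beside 32.02% of all genes. Above 0 in both were 18 of 41, beside 32.06% of all genes, so that the proteasome genes then had the larger share. At an unadjusted p under 0.05, 2 genes passed without the filter (3.12% of all genes did), 3 without replicate 2 (5.16%) and 0 without replicate 3 (0.987%). The alternatives for the counts of genes that differ between 2 libraries or are highest in replicate 2, the level range and the use of replicates 1 and 3 alone were chosen after seeing the data.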
